A study of Mus musculus with 12 samples.

Results

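Mitochondrial ribosomal protein genes were taken as the protein-coding RefSeq genes of GRCm38 whose symbol begins with Mrpl or Mrps followed by a number. There were 78 of them among 49997 genes, 49 Mrpl genes, named for the large subunit of the mitochondrial ribosome, and 29 Mrps genes, named for the small subunit. They were examined in m1A RNA immunoprecipitation from the dorsal striatum (caudate putamen) of adult male Tet1 fl/fl mice. KO mice received AAV-Cre-EGFP in that region and are labelled Tet1 delta/delta, and control mice received AAV-EGFP and keep the floxed Tet1 alleles, so both groups carry loxP sites, an injected virus and EGFP. Tissue was taken 2 weeks after injection. The labels state neither the promoter that drives Cre nor the share of cells that took up virus, nor whether the numbered libraries came from separate animals. Each genotype had 3 pull-down libraries, each with its own input, 12 libraries in all, and the deposited data were the 6 lists of peaks called in the pull-downs.

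The mitochondrial ribosome translates the few proteins encoded by mitochondrial DNA, all of them components of the respiratory chain and ATP synthase. Its rRNAs are encoded in mitochondrial DNA, but its proteins are encoded in the nucleus, translated in the cytosol and imported. Some of these proteins descend from bacterial ribosomal proteins and others were added in mitochondria. m1A is adenosine methylated at a position that blocks base pairing. It is abundant in tRNA and rRNA, and in mRNA it has been mapped near the start of transcripts. TET1 is an iron-dependent enzyme that oxidises 5-methylcytosine in DNA. The comparison asked whether the Mrpl and Mrps genes, which are short and active in most cells, were called more often in KO lists.

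They were not called more often in KO lists. A gene was called in a library when the summit of a peak lay within its span, from the annotated start to the annotated end. Of the 78 genes, 14 (17.9%) had a peak in at least 1 library, and 64 had none. Peaks were found in 5, 3 and 4 of them in KO 1, 2 and 3, and in 7, 4 and 5 of them in controls 1, 2 and 3. The genotypes overlapped, with 4 ± 1 genes in KO and 5.33 ± 1.53 in control (SD, n = 3 each), and the difference of −1.33 was smaller than the spread between the control libraries. That difference turned to 0.667 when peaks were required to have a −log10 q of at least 5 (5, 3 and 4 genes in KO, and 3, 4 and 3 in control). It was 0 without KO 2 and control 1.

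KO 2 and control 1 stood apart before any gene was considered. KO 2 was the deepest pull-down, with 2508102 tags used by the peak caller. Control 1 was the shallowest, with 459332 tags, and its list was called with every duplicate tag kept. Tags used numbered 1235247 in KO 1 and 1336328 in KO 3, against 1097292 in control 2 and 864206 in control 3. Every KO pull-down was thus deeper than every control, also without KO 2 and control 1, so depth and genotype cannot be told apart. In control 1, 6 of the 7 peaks in Mrpl and Mrps genes had the length of the modelled fragment, which is the shortest peak the caller allows, against 4 of the 22 peaks in the other 5 libraries. Such peaks made up 72.4% of the whole list of control 1 and 11.8% to 16% of the other lists. The lists held 3057 to 6947 peaks in KO and 3004 to 3444 in control. Genes with a peak numbered 2723, 3702 and 2304 in KO 1, 2 and 3, and 2447, 2563 and 2295 in controls 1, 2 and 3 (exact two-sided permutation p = 0.3, n = 3 each; the smallest p that 3 libraries against 3 allow is 0.1). Tet1 had no peak in any list, which gives no check of the deletion. Of 14 markers of medium spiny neurons, the principal neurons of the striatum, 11 had a peak (78.6%), against 26.2% of protein-coding genes. Ppp1r1b, Adcy5, Gng7 and Pde10a had one in all 6 libraries, as did 8.11% of all genes with a peak. Drd1, Tac1 and Pdyn had none. Of 4 markers of cortical excitatory neurons, 3 had a peak (75%), so these shares do not tell striatum from cortex. In bulk tissue, fewer cells of a type and less RNA per cell cannot be told apart.

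**Figure D1:**
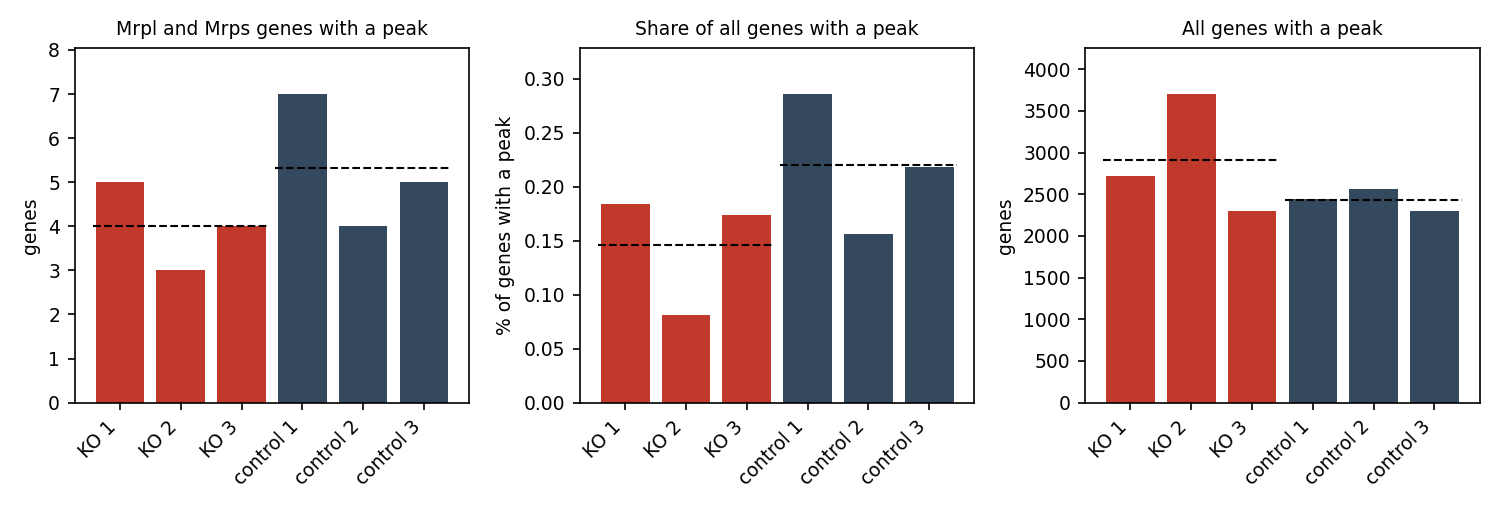
Bars give, for each pull-down library, the number of Mrpl and Mrps genes with an m1A peak, that number as a percent of all genes with a peak, and the number of all genes with a peak. Dashed lines are the means of the 3 KO and the 3 control libraries. KO libraries had 3 to 5 Mrpl and Mrps genes and control libraries 4 to 7, while KO 2 had the most genes with a peak and the fewest of these.

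Promoter windows are shown for the 4 genes whose m1A summit lay within 300 bases of the annotated start. Exons were not used, so the place of these summits in the transcript is not known. Mrpl37 and Mrps30 were called near the start in both genotypes, Mrpl51 in KO 1 alone and Mrps16 in control 3 alone. Each window runs 5′ to 3′ on the strand of the gene, from 250 bases before the annotated start to 50 after it, from RefSeq on GRCm38.p6. Capitals mark matches on either strand to ATGGCGGC, a YY1-type motif, in Mrpl37 and Mrps30, and to CCGGAAG, an ETS-type motif, in Mrpl51. The Mrps16 window holds neither, and that gene has 2 starts in the promoter table, of which the one shown was used for its distances. Mrpl37 lies at chr4:107066817-107067116 on the minus strand, Mrps30 at chr13:118387203-118387502 on the minus strand, Mrpl51 at chr6:125191950-125192249 on the plus strand and Mrps16 at chr14:20393585-20393884 on the minus strand.
Mrpl37: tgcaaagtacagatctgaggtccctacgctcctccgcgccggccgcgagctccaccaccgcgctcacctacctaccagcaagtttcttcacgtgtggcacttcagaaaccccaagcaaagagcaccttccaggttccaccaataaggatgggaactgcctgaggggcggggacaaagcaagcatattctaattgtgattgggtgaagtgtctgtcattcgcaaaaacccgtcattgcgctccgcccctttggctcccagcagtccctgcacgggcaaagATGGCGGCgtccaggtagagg
Mrps30: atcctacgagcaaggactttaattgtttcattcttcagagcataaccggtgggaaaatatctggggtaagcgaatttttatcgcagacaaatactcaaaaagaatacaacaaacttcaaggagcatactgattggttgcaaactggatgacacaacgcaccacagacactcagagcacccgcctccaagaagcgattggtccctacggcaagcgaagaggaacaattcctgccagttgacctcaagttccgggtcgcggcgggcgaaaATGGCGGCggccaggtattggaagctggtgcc
Mrpl51: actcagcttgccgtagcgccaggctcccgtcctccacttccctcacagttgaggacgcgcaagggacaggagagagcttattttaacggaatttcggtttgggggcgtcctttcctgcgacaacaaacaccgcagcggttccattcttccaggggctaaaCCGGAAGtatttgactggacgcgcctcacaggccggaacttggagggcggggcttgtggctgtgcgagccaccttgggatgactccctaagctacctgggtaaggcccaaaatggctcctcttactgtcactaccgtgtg
Mrps16: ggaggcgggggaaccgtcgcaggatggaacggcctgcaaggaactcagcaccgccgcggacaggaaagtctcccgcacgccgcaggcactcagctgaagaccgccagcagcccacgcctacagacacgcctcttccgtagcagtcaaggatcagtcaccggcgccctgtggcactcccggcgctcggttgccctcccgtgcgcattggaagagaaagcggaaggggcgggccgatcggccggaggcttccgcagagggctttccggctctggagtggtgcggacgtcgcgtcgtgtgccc

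In Mrpl37 and Mrps30 the ATGGCGGC match lay after the annotated start, at base 30 and at base 19 of the transcribed part, and the m1A summits lay further downstream. In Mrpl51 the CCGGAAG match began 90 bases before the start. Over all Mrpl and Mrps genes, 69 of 78 were in the RefSeq promoter table. CCGGAAG was found in 26 of these 69 (37.7%), against 2264 of 17491 protein-coding genes (12.9%). ATGGCGGC was found in 12 (17.4%) against 612 (3.5%). CGCATGCG, the core of the NRF1 motif, was found in 7 (10.1%) against 484 (2.77%). All 3 motifs were sought on both strands and chosen after the sequences had been read. Among the 13 genes that had both a peak and a window, 6 held CCGGAAG, 2 held ATGGCGGC and none held CGCATGCG. A match of letters describes the window and does not show binding.

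Mrps9 was the single member called in all 6 libraries. It encodes a small-subunit protein with a bacterial counterpart. The peak was at the same place in every library, with summits between positions 42883580 and 42883635 on chromosome 1. It lay 32347 to 32402 bp downstream of the annotated start in a span of 54451 bp, and no other annotated gene holds that position. Its fold enrichment over the local background was 6.21, 8.63 and 9.98 in KO 1, 2 and 3, and 8.21, 22.8 and 19.0 in controls 1, 2 and 3. Pileup, the tag coverage at the summit, was 32, 45 and 42 in KO 1, 2 and 3, and 9, 28 and 34 in controls 1, 2 and 3. Pileup was thus highest in KO 2 and KO 3 and fold enrichment in controls 2 and 3, and on both measures control 1 did not follow the other controls. The pileups were not divided by depth. The highest came from the deepest pull-down, KO 2 (2508102 tags used), and the lowest from the shallowest, control 1 (459332). The part of depth in the order of the pileups was not tested. These are the authors' values for single peaks, each set against the library's own input, and were not tested as levels between lists. Of the 6656 genes with a peak, 540 (8.11%) were called in all 6 libraries, against 1 of 14 Mrpl and Mrps genes (7.14%). Exons were not used here, so the Mrps9 peak is placed in the gene and not in an exon or intron.

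Mrpl37 encodes a large-subunit protein found in mitochondria and not in bacteria, and it was called in 5 of the 6 libraries. Its fold enrichment was 8.52 in KO 1 and 8.29 in KO 3, with no peak in KO 2, and 8.73, 7.01 and 9.44 in controls 1, 2 and 3. The KO values lay within the range of the control values. Summits fell 236 and 210 bp downstream of the annotated start in KO 1 and KO 3, and 192, 211 and 193 bp downstream in controls 1, 2 and 3. All 5 therefore lay within 44 bp of each other, just past the promoter window printed above, whose last bases the peaks of controls 2 and 3 reached. In KO 2, the deepest library, no peak overlapped the Mrpl37 span, and the nearest summit was 17.3 kb away.

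Mrpl38, another large-subunit gene without a bacterial counterpart, was also called in 5 libraries but at 2 places. In KO 1 and KO 3 its fold enrichment was 14.5 and 7.01, and KO 2 had no peak. Controls 2 and 3 had 13.3 and 11.3 at that same place, on chromosome 11 from 116138471 to 116138765. These 4 summits lay 218 to 254 bp from the nearer end of the span of 7052 bp. The strand of Mrpl38 was not used here, so that end is not identified as the start. Control 1 alone had its peak elsewhere, from 116132645 to 116132814, with 3 tags at the summit and a fold enrichment of 3.67, ranking 3093 of 3179 by −log10 q. By region, Mrpl38 was thus called in 2 libraries of each genotype, and its absence from KO 2 was shared with Mrpl37.

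Mrps30 was called in KO 3, with a fold enrichment of 11.6, and in control 2, with 8.76. Its symbol assigns it to the small subunit, although structures of the mammalian mitochondrial ribosome place its protein in the large subunit. The summits lay 189 bp from the annotated start in KO 3 and 185 bp in control 2, which is 4 bp apart. In the other 4 libraries no peak overlapped the gene. Mrps9, Mrpl37, Mrpl38 and Mrps30 were the 4 members with peaks in both genotypes, and Mrps9, Mrpl37 and Mrpl38 were those with a region called in at least 3 libraries.

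**Figure D2:**
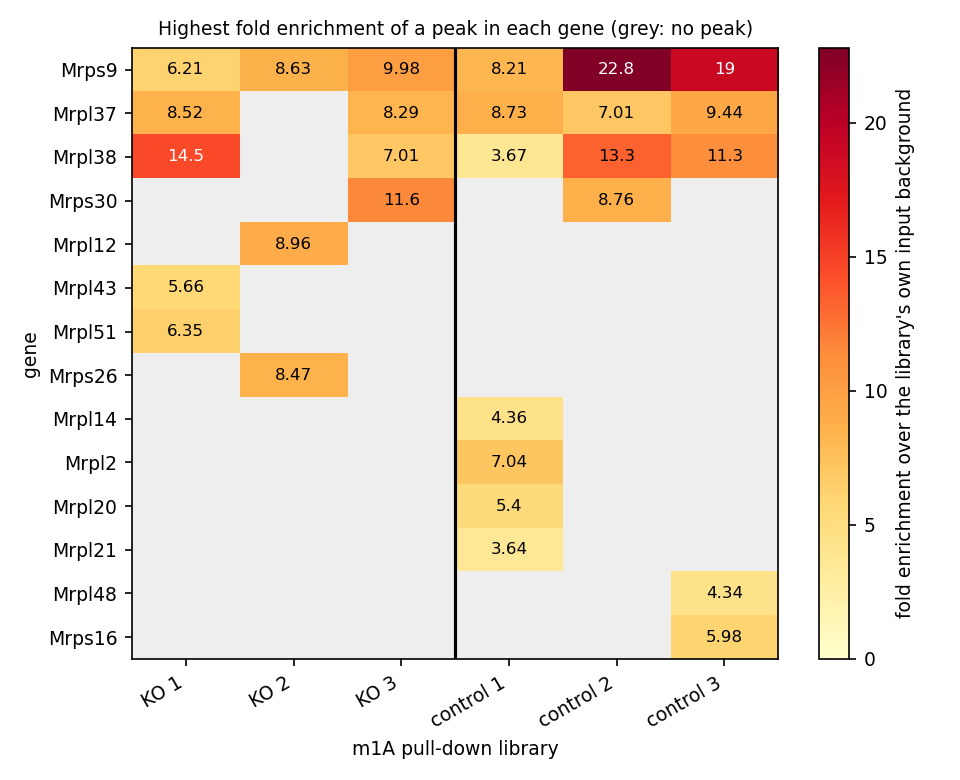
Each row is a gene and each column a library, KO on the left of the line and control on the right. Cells give the highest fold enrichment of a peak in that gene and grey cells have no peak. Mrps9 is filled in all 6 columns, Mrpl37 and Mrpl38 in all but KO 2, and the lower 10 rows are filled in a single column.

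The other 10 genes were each called in a single library, which is 71.4% of those with a peak, against 44.9% over all genes with a peak. KO libraries alone accounted for 4 of them. Mrpl51 and Mrpl43, both large-subunit genes, were called in KO 1 with fold enrichments of 6.35 and 5.66. The Mrpl43 summit also lay in the span of Twnk, the mitochondrial DNA helicase, and cannot be assigned between them. Mrpl12, whose product forms the stalk of the large subunit, was called in KO 2 with 8.96. Mrps26, a small-subunit gene, had 2 peaks in KO 2, with 8.47 and 6.32, the second with the highest pileup of any peak in these genes (54).

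Control libraries alone accounted for the other 6 genes. Control 1 contributed Mrpl2, whose product belongs to the conserved core of the large subunit, with 7.04, Mrpl20 with 5.4, Mrpl14 with 4.36 and Mrpl21 with 3.64. Their pileups were 7, 5, 4 and 3 tags in that order. Control 3 contributed Mrps16 with 5.98 and Mrpl48 with 4.34, and the Mrpl48 summit was shared with the span of Rab6a. With a −log10 q of at least 5, Mrpl2 was the single gene left in control libraries alone, while all 4 KO-alone genes passed. Without KO 1 or without KO 2, 2 of 12 genes were KO alone (16.7%), against 30% and 20.2% over all genes in those settings. Without control 1, 2 of 10 genes were control alone (20%), against 11.6% over all genes.

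KO libraries alone held 4 of the 14 Mrpl and Mrps genes with a peak (28.6%), against 34.1% of all genes with a peak. Control libraries alone held 6 of 14 (42.9%), against 22.4% of all genes with a peak. Among protein-coding genes with a span of up to 20 kb, the class to which 12 of the 14 belong, the background was 38.4% for KO alone and 20.7% for control alone. In that class 4 of the 12 were KO alone (33.3%) and 5 were control alone (41.7%). Counted by libraries, 4 of 14 were called in more KO than control libraries (28.6%, background 46.8%) and 8 in more control than KO libraries (57.1%, background 30.9%). None had a peak in the 3 KO libraries and in none of the controls (background 1.74%), and none the reverse (background 0.856%). With 14 genes, 1 gene is 7.14% of the total, so the KO-alone count was under 1 gene below the background, and 4 of the 6 control-alone calls came from control 1. With the −log10 q limit of 5, 9 genes had a peak, of which 4 were KO alone (44.4%) and 1 was control alone (11.1%). The shares over all genes were then 44.3% and 13.2%, close to those of the Mrpl and Mrps genes. With KO 2 and control 1 left out, 8 genes had a peak, of which 2 were KO alone and 2 control alone (25% each), near the 30% and 23.1% over all genes.

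**Figure D3:**
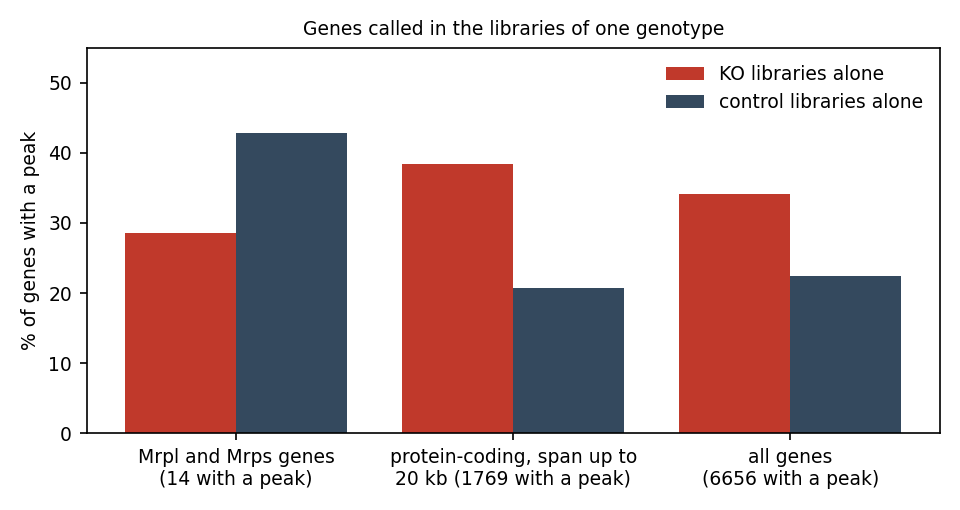
Bars give the percent of genes with a peak that were called in libraries of KO alone or of control alone, for the Mrpl and Mrps genes, for protein-coding genes with spans of up to 20 kb and for all genes. The order of the bars is 28.6% and 42.9% for the Mrpl and Mrps genes and 34.1% and 22.4% for all genes.

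The number of genes with a peak differs between lists, and of these genes the Mrpl and Mrps genes made up 0.184%, 0.081% and 0.174% in KO 1, 2 and 3, and 0.286%, 0.156% and 0.218% in controls 1, 2 and 3. The means were 0.146 ± 0.0566% in KO and 0.22 ± 0.065% in control (SD, n = 3 each), and the genotypes overlapped through control 2. Without KO 2 and control 1 the means were 0.179% in KO and 0.187% in control. Counting peaks instead of genes gave 5, 4 and 4 in KO, and 7, 4 and 5 in control. Mrpl genes with a peak numbered 4, 1 and 2 in KO, and 6, 2 and 3 in control. Mrps genes numbered 1, 2 and 2 in both genotypes. No p-value is given for these counts, since the genes were chosen with results of these data known.

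By subunit, 10 of 49 Mrpl genes (20.4%) and 4 of 29 Mrps genes (13.8%) had a peak in any library. Genes with a bacterial counterpart, taken as Mrpl numbers up to 36 and Mrps numbers up to 21, had a peak in 7 of 44 cases (15.9%). Those without one had a peak in 7 of 34 (20.6%). The background over protein-coding genes was 26.2%, and over those with spans of up to 20 kb it was 14.9%, against 12 of 68 Mrpl and Mrps genes of that length (17.6%). Among the 64 genes with no peak were Mrpl58, a peptidyl-tRNA hydrolase built into the large subunit, and Mrps36, whose product belongs to the oxoglutarate dehydrogenase complex. The 6 annotated Mrpl and Mrps pseudogenes had no peak.

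Span length went with calling over all protein-coding genes. The median span was 7.69 kb for the Mrpl and Mrps genes and 17.1 kb for protein-coding genes, and it was 40.7 kb for the protein-coding genes with a peak. Mrpl and Mrps genes had peaks in 6 of 25 cases for spans of up to 5 kb, 4 of 30 for 5 to 10 kb, 2 of 13 for 10 to 20 kb, 0 of 4 for 20 to 50 kb and 2 of 6 above 50 kb. The share of other protein-coding genes with a peak was 9.04%, 16.4%, 21.3%, 27.5% and 52.1% in the same classes. Each class held few Mrpl and Mrps genes, and the 14 with a peak had a median span of 6.5 kb, against 7.99 kb for the 64 without. The class of up to 5 kb (24%) lay above the other protein-coding genes, and it held Mrps26, Mrpl51, Mrpl12, Mrps16, Mrpl2 and Mrpl43, each called in a single library.

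**Figure D4:**
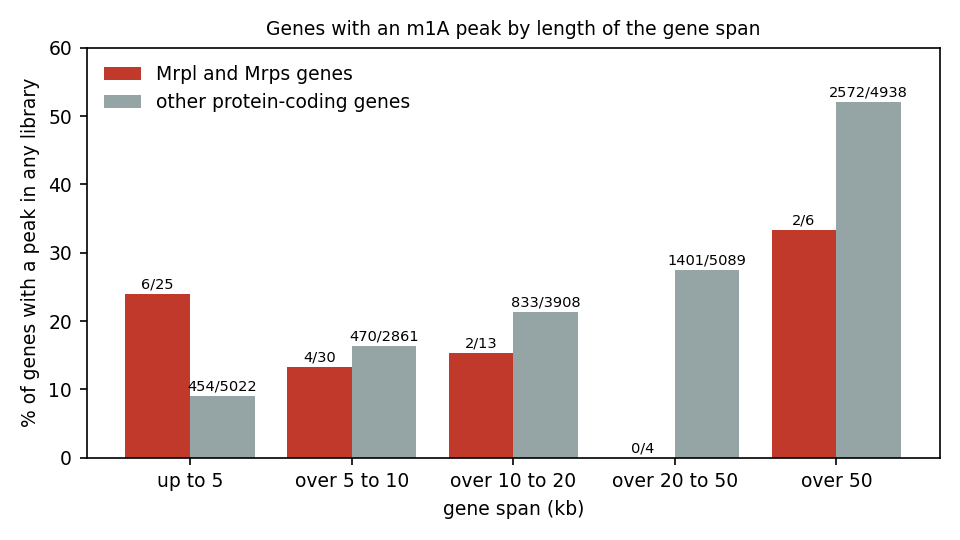
Bars give the percent of genes with a peak in any of the 6 libraries, by length of the gene span, with the number of genes with a peak over the number in the class. The Mrpl and Mrps genes stand at 24% in the shortest class and 33.3% in the longest, with 0 of 4 in the class of 20 to 50 kb, and other protein-coding genes climb over the classes, with 9.04% in the shortest and 52.1% in the longest.

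Summits lay close to the annotated start in many of these genes. Of 13 genes with a peak and a known strand, 7 had a summit within 500 bp of the start: Mrpl37, Mrps30, Mrpl51, Mrps16, Mrpl48, Mrpl21 and Mrpl43. These gave 12 of 24 summits, of which 5 were Mrpl37 in different libraries. The Mrpl43 and Mrpl48 summits also lay in the spans of Twnk and Rab6a. The 24 include the Mrpl48 summit and the 6 Mrps9 summits, in spans above 20 kb, which the class given next leaves out. Over protein-coding genes with spans of up to 20 kb, summits within 500 bp of the start made up 36.4%, 21.6% and 42.6% in KO 1, 2 and 3, and 32%, 39.7% and 38.9% in controls 1, 2 and 3. KO 2 was the lowest, and none of its 4 summits in Mrpl and Mrps genes lay within 500 bp of a start. Over all protein-coding genes the shares in KO 2 and control 1 were 9.13% and 13.9%, against 25% to 32.2% in the other 4 libraries. The Mrpl37 peak near the start was absent from KO 2 and present in control 1, and the part of these shares in single calls was not tested. The second Mrps26 summit and the Mrpl12 summit in KO 2 lay 249 and 170 bp from the far end of the gene.

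**Figure D5:**
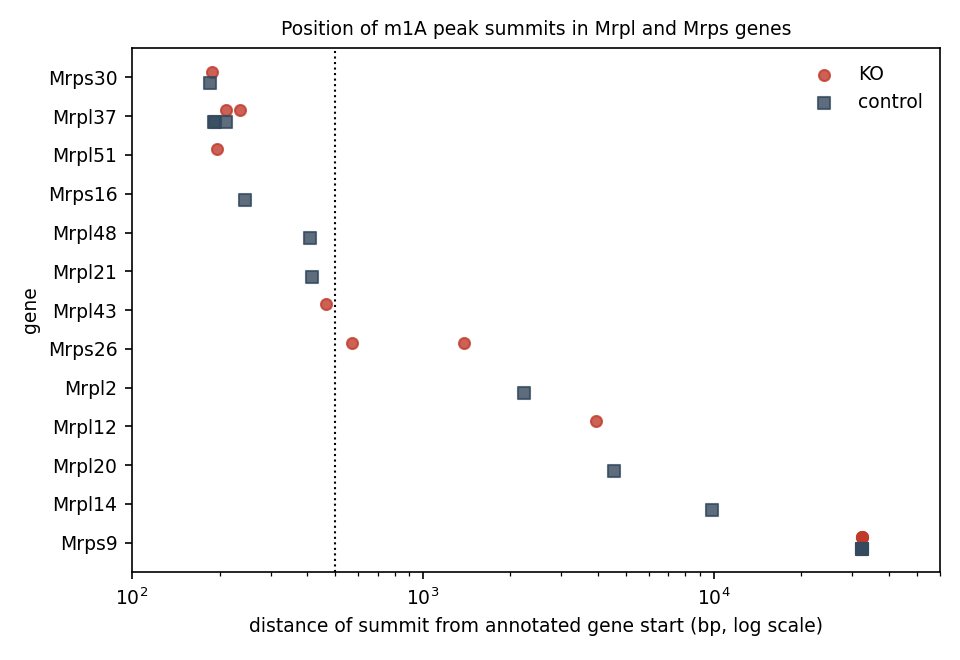
Points give the distance of each peak summit from the annotated gene start on a log axis in bp, for the 13 Mrpl and Mrps genes with a known strand, with KO libraries as circles and control libraries as squares. The dotted line marks 500 bp. Mrps30 and Mrpl37 lie between 185 and 236 bp in both genotypes and Mrps9 between 32347 and 32402 bp in all 6 libraries.

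Other genes of mitochondrial translation are given beside the 26.2% of protein-coding genes with a peak, or 14.9% of those with spans of up to 20 kb. None of 13 translation factors, among them the elongation factors Tufm and Gfm1, had one in any library. Of 5 mitoribosomal proteins that carry other names, Dap3, a GTP-binding small-subunit protein, was called in KO 3 and in control 2. Of 24 assembly factors, the GTPases Mtg1 and Mtg2 were called in 1 KO library each and Mettl17 in 1 control library. Of 17 mitochondrial tRNA ligases, which charge tRNAs for this ribosome, 5 had a peak (29.4%). Cars2, for cysteine, had peaks in the 3 KO libraries and in none of the controls, with highest fold enrichments of 7.02, 16.0 and 10.5 in KO 1, 2 and 3, a pattern held by 1.74% of all genes with a peak. Lars2, for leucine, had peaks in the 3 controls and in none of the KO libraries, with 60.6, 8.32 and 7.79 in controls 1, 2 and 3, a pattern held by 0.856%. The list of control 1 kept every duplicate tag, and its highest pileup at any peak was 22013, against 261 to 288 in the other lists. The source of the reads at Lars2 was not tested. The 3 methyltransferase genes matched for mitochondrial m1A, and the mitochondrial rRNA genes mt-Rnr1 and mt-Rnr2, had no peak in any list. The rRNA genes were looked up after the results were known, and rRNA had been depleted from the libraries.

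The cytosolic ribosomal proteins are also widely expressed. Of 84, 29 had a peak (34.5%), against 26.2% of protein-coding genes and 14.9% of those with spans of up to 20 kb. Of the 29, 19 were KO alone and 1 was control alone. Over all genes with a peak, 2267 of 6656 were KO alone (34.1%) and 1492 were control alone (22.4%). For protein-coding genes of up to 20 kb with a peak, the shares were 38.4% and 20.7%. The cytosolic genes numbered 17, 22 and 13 in KO 1, 2 and 3, and 2, 9 and 10 in controls 1, 2 and 3. These 2 ranges do not overlap. All genes with a peak numbered 2723, 3702 and 2304 in KO and 2447, 2563 and 2295 in control, which overlapped. Protein-coding genes with spans of up to 20 kb numbered 829, 867 and 676 in KO and 421, 732 and 685 in control, which overlapped. Tags used were also higher in every KO library than in every control, and the part of depth in these counts was not tested. The Mrpl and Mrps genes, at 5, 3 and 4 in KO and 7, 4 and 5 in control, overlapped. KO 2 had the most cytosolic and the fewest mitochondrial ribosomal protein genes, and control 1 the fewest cytosolic and the most mitochondrial. The difference between the lists was not tested. Markers of other cell types overlapped between genotypes as well. Oligodendrocyte genes numbered 4 to 5 of 7 in KO, and 1, 5 and 5 in controls 1, 2 and 3. Astrocyte genes numbered 2 of 7 in every KO library, and 0, 3 and 3 in controls 1, 2 and 3. The overlap of the astrocyte genes rested on control 1. Microglial genes numbered 0 to 2 of 6 in KO and 0 to 1 in control. Endothelial genes numbered 0 to 1 of 5 in both genotypes, and genes of cortical excitatory neurons 1 to 2 of 4. Slc17a7 was called in all 6 libraries, as were 8.11% of all genes with a peak. Over any library, the shares of these lists with a peak were 71.4%, 57.1%, 33.3%, 40% and 75% in that order. The share of protein-coding genes was 26.2%. The part of these cell types in the calls was not tested.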

How the data were processed

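m1A pull-downs and inputs were sequenced from 3 KO and 3 control preparations. The build was GRCm38, and the submitters' processing notes list HISAT2 2.1.0 and cutadapt 2.8 beside MACS2 2.2.6. MACS2 compared every pull-down with the matching input and kept peaks up to a q-value of 0.01, per the file headers, with at most 1 tag kept per position except in control 1, where all were kept. Per the file headers, the deposited lists give pileup as a signal (coverage in tags), the −log10 of p and q, and fold enrichment as a ratio. These are values of single peaks and were used to describe, rank or filter within a list. The lists hold no read counts outside peaks, so the absence of a peak does not show the absence of m1A, and no counting interval can be given.

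Summits were placed in gene spans of the RefSeq table of GRCm38.p6. It gives no exons, and strand came from the promoter table, which held 69 of the 78 genes. Summits inside more than 3 gene spans were not used. Regions were merged where peaks shared at least 1 bp. Transcript abundance was not tested. Values were computed in Python 3.11.15 with pandas 2.3.3. The gene placement was checked on simulated peaks, and the permutation test was run on small made-up groups of values.

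Members and gene lists were chosen with earlier results of these data known. Members with a peak in at least 3 libraries, or in at least 2 libraries of 1 genotype and none of the other, were given by library, and other members with a peak were named with their pattern. Counts over members were given by library with no p-value, beside the percent of all genes called the same way. The number of genes with a peak was compared by an exact permutation test over 20 assignments, whose p-value rests on the spread of these libraries alone, possibly a technical one.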

Additional observations from a re-analysis of the deposited data

How the results depend on the processing

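Results were recomputed under stricter thresholds, other rules for placing a peak, lists of equal length and fewer libraries. The KO minus control difference in Mrpl and Mrps genes per library was −1.33 and turned to 0.667 at a −log10 q of at least 5, where the difference in peaks was 1 and 1 gene was control alone. Without KO 2 and control 1 the difference in genes was 0, in their share −0.00835 percentage points and in Mrpl genes 0.5, with 2 of 8 genes KO alone and 2 control alone (30% and 23.1% over all genes). With lists of equal length, genes with a peak differed by −152.7, opposite to the 474.7 over full lists (exact permutation p = 0.1 and 0.3, n = 3 each). The cause of these shifts was not tested. Leaving out each library in turn gave −2 to −0.5 for the genes, −0.106 to −0.0409 for the share, −1.67 to −0.167 for peaks, −2.17 to −0.167 for Mrpl genes, −0.333 to 0.333 for Mrps genes, 78.5 to 777.5 for genes with a peak, 2 to 5 for KO-alone and 2 to 7 for control-alone genes. With the replicate number as a block, the difference in genes with a peak was 474.7 with an exact sign-flip p of 0.25, the smallest that 3 pairs allow. Deviations of same-numbered libraries correlated at −0.0376, −0.0546 and 0.0332. Such values cannot show whether same-numbered libraries shared a preparation, and the labels do not state what the number stands for. Regions called in at least 3 libraries numbered 3 also under a stricter merging rule, where peaks had to share a larger part of the shorter peak. Extending spans by 500 bp, an alternative chosen after seeing the data, added Mrpl18 in KO 1. A missing call at these depths, lowest in control 1, does not show that a transcript lacked m1A.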
